A study of Homo sapiens with 3 samples.

Results

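The human assembly used for these libraries holds, besides chromosomes 1 to 22, X and Y, the mitochondrial genome and short sequences that could not be built into a chromosome. Some of the latter are assigned to a chromosome without a position in it (called localised contigs here) and others to no chromosome at all (unplaced contigs). All summits of SOX4 chromatin immunoprecipitation that lie on any of these sequences were taken by sequence name alone, 355 of 7511 summits. They comprise 104 of 1368 summits in replicate 1, 125 of 1713 in replicate 2 and 126 of 4430 in replicate 3. SOX4 is a transcription factor with a high-mobility-group DNA-binding domain. The libraries were made from BT549 cells, a line established from a human breast cancer of the triple-negative kind, at passage 5. Every title carries UT, which the labels do not explain. Cells were crosslinked with disuccinimidyl glutarate (DSG) and formaldehyde for every library, and sheared chromatin was precipitated with 1 Abcam antibody to SOX4. The 3 libraries form 1 group, nothing in the labels places them in separate cultures, and no input, IgG or second condition was analysed here. Spread between libraries may therefore be technical. Summit positions do not allow a check of the cell line against its expression markers.

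Contigs left out of chromosomes are often rich in satellite repeats, segmental duplications and ribosomal RNA gene arrays, which are hard to assemble because their copies are alike. The mitochondrial genome is a small circle present in many copies per cell. It encodes subunits of the respiratory chain and of ATP synthase together with the ribosomal and transfer RNAs that translate them, and pieces of it have been copied into the nuclear chromosomes during evolution. The reads were 36 bp paired ends. How reads that match several places were assigned is not given in the sources used here, and its part in the values that follow was not tested.

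The number of summits outside the assembled chromosomes varied little between libraries while the length of the lists varied much. It was 118 ± 12.4 (SD, n = 3), against 2385 ± 1669 on the assembled chromosomes. As a share of its list this was 7.60% in replicate 1 (exact 95% binomial interval 6.25 to 9.14%), 7.30% in replicate 2 (6.11 to 8.63%) and 2.84% in replicate 3 (2.37 to 3.38%), a mean of 5.91% ± 2.66 (SD, n = 3). With each list limited to its 1368 highest scores, the shares were 7.60%, 8.77% and 6.36%. Localised contigs held 41, 52 and 53 summits in replicates 1 to 3, unplaced contigs 53, 63 and 62, and the mitochondrial genome 10, 10 and 11. These intervals cover counting error only, since depth is unknown and summits of 1 library share their source.

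Summits fell on 54 contigs, 21 of them localised and 33 unplaced. In all 3 libraries there were summits on 27 of the 54, in 2 libraries on 15 and in 1 library on 12. The 10 contigs with 10 or more summits carried 198 of the 324 contig summits, and 8 contigs had a single summit. Among localised contigs, the 4 assigned to chromosome 14 held 73 summits, the 4 of chromosome 1 and the 6 of chromosome 22 held 22 each, and the 2 of chromosome 17 held 16. Across the 54 contigs the number of summits ranked alike in replicates 1 and 2 (Spearman's rho 0.68), less so in replicates 1 and 3 (0.50) and in replicates 2 and 3 (0.32). These are descriptions over contigs whose unequal lengths all libraries share.

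**Figure D1:**
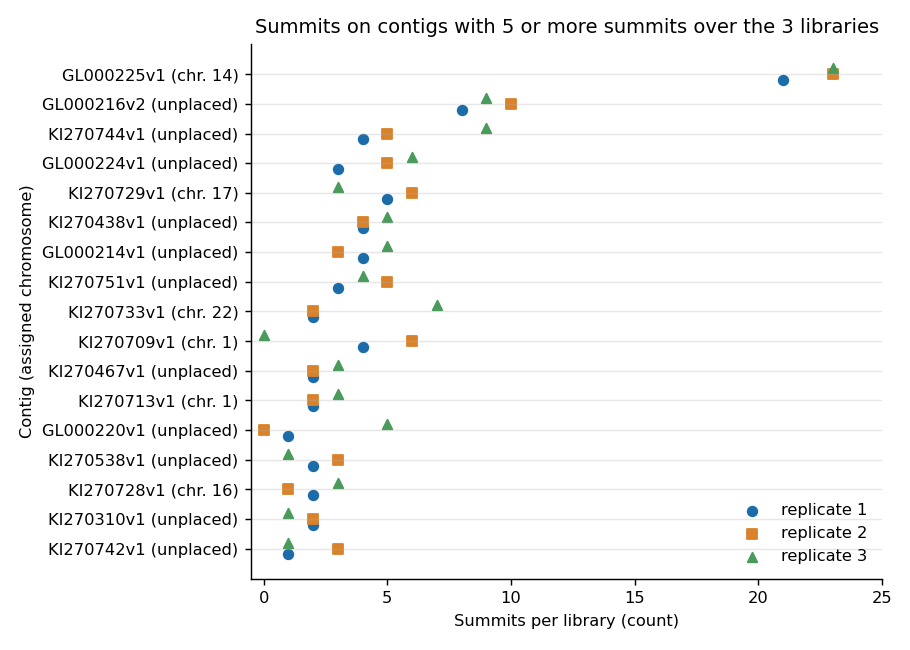
Number of summits per library (x axis, count) on each contig with 5 or more summits over the libraries (y axis, with the assigned chromosome); each symbol is 1 library. GL000225v1 holds 21, 23 and 23 summits, more than any other contig shown, KI270709v1 none in replicate 3 and GL000220v1 none in replicate 2.

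GL000225v1, a contig assigned to chromosome 14, carried 67 summits, 18.9% of all those outside the assembled chromosomes. Replicates 1 to 3 had 21, 23 and 23 of them, and 62 of the 67 had a summit of another library within 200 bp. Joining summits of all libraries across gaps of at most 200 bp, as for every region below, gave 29 regions, of which 14 had all 3 libraries, 10 had 2 and 5 had 1. The score is the authors' own, a −log10 of either a p or a q value. Its median on the contig was 16.4, 16.5 and 11.6 in replicates 1 to 3. The regions of 3 libraries ran from position 6719 to 130474, with gaps of 822 to 24689 bp between midpoints and a median gap of 7407 bp.

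Summits of the 3 libraries lay close to each other at several sites of this contig. The region at 56099 to 56101 had its summits within 3 bp, with scores of 22.5, 27.1 and 16.98 in replicates 1 to 3. The region at 67494 to 67506 scored 32.5, 34.4 and 22.01, and the one at 116663 to 116709 scored 36.4, 34.1 and 32.2. Replicate 2 reached its highest score of the contig, 47.6, at 50892. In the same region replicate 1 scored 22.5 at 50889 and replicate 3 scored 29.8 at 51026. A replicate 3 summit with a score of 28.7 at 14260 had no counterpart within 200 bp, as the nearest of another library was 404 bp away.

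In replicates 1 and 2 the highest contig scores lay on KI270438v1, an unplaced contig with 4, 4 and 5 summits. In replicate 3 its highest, 45.4, came after 49.4 on KI270713v1 and 48.0 on GL000216v2. At 110322 to 110338 the scores were 112, 128 and 45.4 in replicates 1 to 3, ranks 5, 3 and 13 of their lists. At 111580 to 111695 they were 128, 105 and 37.0, ranks 2, 6 and 24. A further region at 105255 to 105412 scored 4.73, 13.5 and 8.03. Replicates 1 and 2 shared a region at 104344 and 104519 (29.6 and 30.9), and the replicate 3 summit at 104124 (18.3) lay just beyond the joining distance.

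GL000216v2, also unplaced, held 8, 10 and 9 summits in 11 regions, 7 of them in all 3 libraries. The region at 173974 to 173976 scored 27.9, 39.7 and 40.1, with all summits within 3 bp. The region at 159636 to 159661 scored 34.3, 31.6 and 48.0. At 149573 to 149617 the scores were 24.1, 30.0 and 26.9, and every library was above 20.

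KI270729v1, assigned to chromosome 17, had 5, 6 and 3 summits, and its strong sites were as narrow. The region at 3578 to 3585 scored 35.4, 48.2 and 32.3, and that at 27798 to 27807 scored 42.1, 38.2 and 24.7. At 47221 to 47228 the scores were 19.4, 12.3 and 8.78. The summits of replicates 1 and 2 near 22.6 kb, at 22596 and 22611 (12.2 and 24.3), had no replicate 3 partner.

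Other contigs with many summits had lower median scores. KI270744v1 had 4, 5 and 9 summits with scores from 3.13 to 12.998 and 3 regions of all libraries. GL000224v1, GL000214v1 and KI270751v1 held 14, 12 and 12 summits and 2 regions of 3 libraries each, with median scores of 7.66, 6.68 and 7.63 over the libraries. On KI270713v1, assigned to chromosome 1, 1 region stood apart between libraries: at 21968 to 22049 replicate 3 scored 49.4 against 8.80 in replicate 1 and 8.24 in replicate 2.

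KI270709v1, also assigned to chromosome 1, had 4 summits in replicate 1 and 6 in replicate 2, and none was listed in replicate 3. Its strongest region, at 14754 to 14755, scored 27.6 and 22.5, and the region at 3988 to 3989 scored 14.3 and 10.1. In all, 7 contigs had summits in replicates 1 and 2 but not 3, 3 in replicates 1 and 3 but not 2, and 5 in replicates 2 and 3 but not 1. The 7 were KI270317v1, KI270337v1, KI270411v1, KI270412v1, KI270418v1, KI270420v1 and KI270709v1.

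Several contigs, localised and unplaced, showed only 1 site. On 8 contigs every library had exactly 1 summit, and the 3 formed 1 region: KI270303v1, KI270304v1, KI270330v1, KI270422v1, KI270466v1, KI270724v1, KI270734v1 and KI270738v1. On all of these but KI270734v1 and KI270738v1, no summit lay past position 1379. Contig lengths were not used here, and short contigs limit how far apart summits can lie. KI270422v1 scored 41.2, 55.2 and 18.4 in replicates 1 to 3, and KI270330v1 scored 22.2, 16.5 and 20.5. On KI270734v1, assigned to chromosome 22, the region at 121541 to 121554 scored 22.9, 20.8 and 22.5, so the libraries lay close together. KI270466v1 scored 25.6, 19.6 and 6.66. On 17 contigs all summits lay at positions up to 3000. They held 49 summits, 8 of the 17 had a region of 3 libraries, and 8 had no replicate 3 summit.

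Apart from KI270733v1, described with the ribosomal genes, the remaining contigs with a region of 3 libraries were KI270467v1, KI270538v1, KI270310v1, KI270743v1, KI270747v1 and KI270442v1. On KI270538v1 the region at 81337 to 81352 scored 27.6, 34.8 and 6.66, and on KI270442v1 the region at 92392 to 92574 scored 24.0, 24.1 and 19.0. The other 4 had scores of at most 16.9.

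The first comparison asked whether summits outside the assembled chromosomes recur between libraries more often than those on them. They did in each library. A summit of another library lay within 200 bp for 90 of 104 summits in replicate 1 (86.5%, 95% interval 78.4 to 92.4%), 93 of 125 in replicate 2 (74.4%, 65.8 to 81.8%) and 86 of 126 in replicate 3 (68.3%, 59.4 to 76.3%). Over all summits of each list, the share was 52.9%, 43.4% and 18.3%. On the assembled chromosomes alone it was 50.2%, 40.995% and 16.9%, and on assembled chromosomes over 50 kb from the end of a protein-coding gene 45.4%, 31.5% and 18.9%. The difference from the assembled chromosomes was 36.4, 33.4 and 51.4 percentage points, a mean of 40.4 ± 9.64 (SD, n = 3), higher in 3 of 3 libraries. The exact two-sided sign-flip permutation test over libraries gave p = 0.25, the smallest that 3 libraries allow. Regions also lay closer together on these sequences. The median distance to the nearest region was 1249.5 bp on contigs, 1309 bp on the mitochondrial genome and 56852 bp on assembled chromosomes. How much sharing of summits or regions such crowding alone would give was not tested.

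Sharing with both other libraries was found for 58.7%, 48.8% and 48.4% of the summits outside the assembled chromosomes, against 22.4%, 17.2% and 6.61% of all summits in replicates 1 to 3. Localised contigs (90.2%, 75% and 69.8% shared with another library) and unplaced contigs (81.1%, 69.8% and 62.9%) lay on the same side of the assembled chromosomes. As regions, 102 of 188 had at least 2 libraries (54.3%), against 15.6% of all regions, and 63 had all 3 (33.5%, 26.8 to 40.7%), against 5.34% of all regions. Of the 53 contig regions with 3 libraries, 22 (41.5%) had their summits within 50 bp, as did 59 of the 268 such regions on assembled chromosomes (22.01%).

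Scores were higher as well. The median score was 10.7, 11.1 and 8.18 outside the assembled chromosomes and 5.91, 5.57 and 5.54 on them. The difference of 4.75, 5.50 and 2.64 had a mean of 4.29 ± 1.48 (SD, n = 3) and was positive in 3 of 3 libraries (exact sign-flip p = 0.25, the smallest possible). With mean in place of median scores the difference was 7.91. Over the 2 comparisons, sharing and score, the exact p of 0.25 is the same after Benjamini-Hochberg adjustment. Scores above 20 were held by 24.0%, 25.6% and 19.05% of these summits, against 7.68%, 6.13% and 1.78% of all summits. Of the 100 highest scores of each list, 25, 30 and 31 lay outside the assembled chromosomes.

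The gap in sharing differed between score classes. Between scores of 5 and 10, 75%, 56.3% and 56.9% of the summits outside the assembled chromosomes were shared, against 44.2%, 39.4% and 16.9% on them. Below 5 the shares were 75%, 36.4% and 38.9% against 38.3%, 28.04% and 8.92%, from only 16, 11 and 18 summits outside. At 20 and over they were 100%, 100% and 91.7% against 97.5%, 98.6% and 94.5%, with no common direction. A comparison added after the data were seen weighted the assembled summits to the same shares of the score classes. It left a mean difference of 18.7 percentage points ± 10.03 (SD, n = 3), from 8.54 to 28.6 in single libraries. Scores can still differ within a class.

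**Figure D2:**
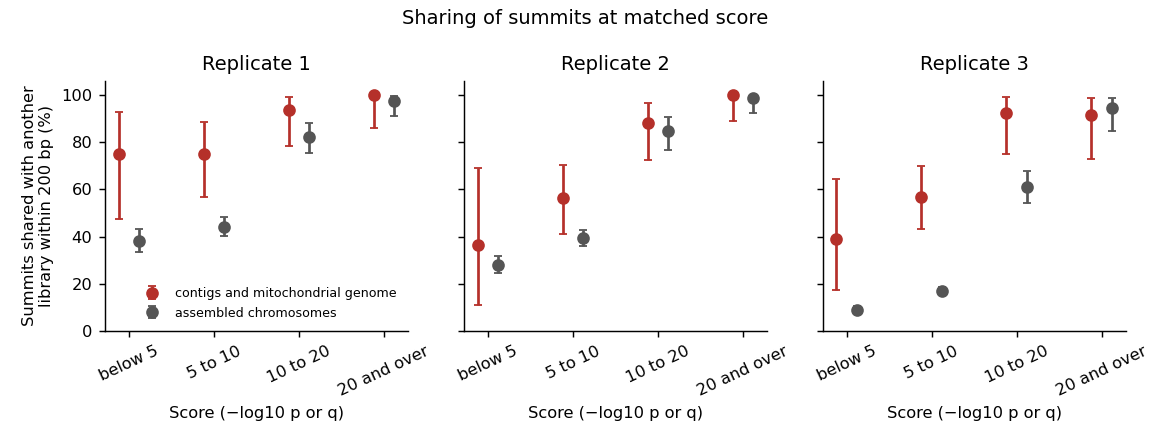
Percent of summits with a summit of another library within 200 bp (y axis) in 4 score classes (x axis) for each library, on contigs and the mitochondrial genome (red) and on assembled chromosomes (grey); bars are exact 95% binomial intervals. Below a score of 20 the red points lie above the grey ones in all 3 libraries, with overlapping intervals throughout replicate 2 and from 10 to 20 in replicate 1. At 20 and over the intervals overlap in every library.

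The mitochondrial genome carried the most regular pattern. Of its 11 regions, 10 had a summit in every library, with the libraries' summits spread over 24 to 110 bp. Median scores were 20.6, 28.7 and 24.4 in replicates 1 to 3, and 5 of 10, 7 of 10 and 7 of 11 summits scored above 20. The order of the scores over the 10 regions was similar between libraries (Spearman's rho 0.96, 0.82 and 0.76 for replicates 1 and 2, 1 and 3, and 2 and 3). The regions share 1 circular genome and its read depth.

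By gene, 9 of the 37 mitochondrial genes in the reference table held a summit, each in all 3 libraries. They were the 2 ribosomal RNA genes and 7 of the 13 protein-coding genes, while none of the 22 transfer RNA genes, at most 75 bp long, held one. The genes with a summit were 684 to 1812 bp long. The 6 protein-coding genes without one were ND2, ND3, ND4L and ND6, which encode complex I subunits, and ATP6 and ATP8, which encode ATP synthase subunits, and the longest of these, ND2, has 1042 bp. The widest gap between neighbouring regions, 2712 bp, ran from ND1 across ND2 and a cluster of transfer RNA genes to COX1.

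The highest mitochondrial score of each library was in CYTB, the cytochrome b gene of complex III. Its summits lay at 14938, 14968 and 14958 in replicates 1 to 3, 191 to 221 bp from the lower end of the gene, with scores of 58.0, 75.7 and 68.6. RNR1, the small ribosomal RNA gene, had summits at 799, 819 and 786 with scores of 49.4, 62.1 and 40.2. ND5, a complex I subunit gene, scored 37.0, 44.6 and 52.2 at 12993, 12973 and 13039. All 3 regions ranked among the best 40 summits of every list.

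Outside the genes, 1 region lay past the last transfer RNA gene in the non-coding control region, which holds promoters and the start of replication. Its summits at 16308, 16319 and 16338 scored 38.6, 31.6 and 42.5. RNR2, the large ribosomal RNA gene, scored 21.8, 32.2 and 17.4 at 2624, 2662 and 2642. The 1 mitochondrial summit without a partner was a second site in RNR1 at 1276, in replicate 3, with a score of 21.6 and 457 bp from the nearest summit of another library.

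The other 5 regions lay in ND1, a complex I gene next to RNR2, and from COX1 to ND4. ND1 scored 19.4, 25.7 and 33.3 at 3617, 3508 and 3519. COX1, encoding the catalytic subunit of complex IV, scored 16.6, 21.3 and 24.4 at 6325, 6234 and 6224. COX2 had the lowest score of each library, 8.40, 16.1 and 12.8, at 7940, 7918 and 7917. COX3 scored 12.4, 17.01 and 19.6 at 9339, 9307 and 9319, and ND4 scored 13.7, 18.8 and 18.2 at 11712, 11682 and 11685.

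**Figure D3:**
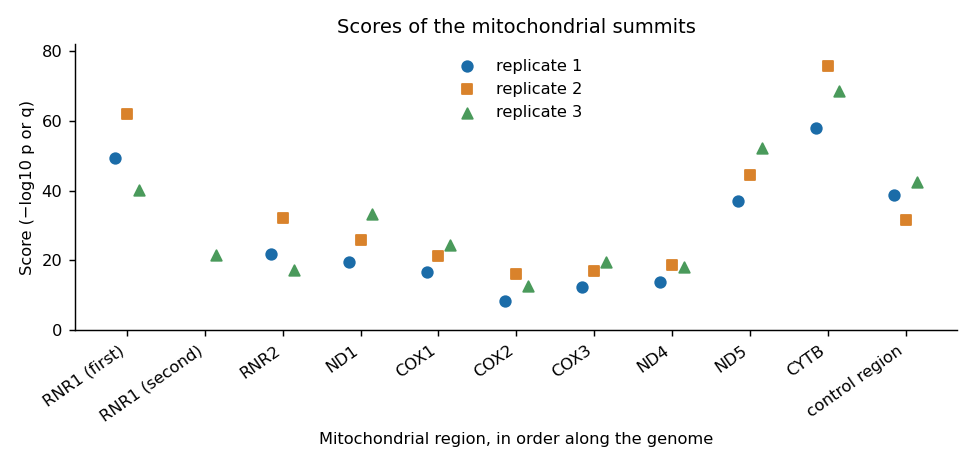
Score of each mitochondrial summit (y axis, −log10 of a p or q value) by region in order along the genome (x axis, categories named for the gene); each symbol is 1 library. CYTB is highest in every library (58.0, 75.7 and 68.6) and COX2 lowest (8.40, 16.1 and 12.8).

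A long nuclear copy of this middle stretch lies on chromosome 1, and it carried summits of its own. The reference table lists 7 neighbouring pseudogenes there, MTND1P23, MTND2P28, MTCO1P12, MTCO2P12, MTATP8P1, MTATP6P1 and MTCO3P12, from 629062 to 634922. Of these, 5 have the full or nearly full length of their gene, and the starts of all but MTND1P23 keep the order and spacing of the mitochondrial genes to within 1 bp. Positions can therefore be set side by side from the starts of COX1 and MTCO1P12, and the block then corresponds to mitochondrial positions 3892 to 9752. The table of sequences used here holds 1 piece of the block, the microRNA hairpin MIR12136 at chr1:632615-632685 on the minus strand (GRCh38.p14, RefSeq). It is shown because it covers the copy of TRNS1, a transfer RNA gene for serine at mitochondrial positions 7446 to 7514, its equivalent positions being 7445 to 7515. Capitals mark the mature hsa-miR-12136.
MIR12136: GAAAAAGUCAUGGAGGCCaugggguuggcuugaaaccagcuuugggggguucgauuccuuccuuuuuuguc

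Summits of the copy and of the mitochondrial genome did not coincide. In MTCO1P12, summits lay at 631106, 631130 and 631124 in replicates 1 to 3 (scores 53.2, 79.4 and 42.6), 32 to 56 bp from its start, while the summits of COX1 lay 320 to 421 bp from its own start. A second group in MTCO1P12, at 632139, 632072 and 632070, scored 43.6, 59.7 and 16.2, and COX1 had no summit at the equivalent place. MTATP6P1 had summits at 634159, 634146 and 634163 with scores of 36.2, 50.6 and 20.4, although ATP6 itself had none. Replicate 2 had a summit in MTND2P28 at 629664 (30.0), and replicate 1 one at 629625 (14.6), 15 bp before it. COX2 and COX3 showed the reverse, with mitochondrial summits in every library and none in MTCO2P12 or MTCO3P12.

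Within each library the equivalent position of every summit of the copy was at least 270 bp from the nearest mitochondrial summit, and up to 986 bp. The labels give fragments of 300 to 800 bp, and most of these distances, up to 676 bp, are below the upper value. The others were 838 bp in replicate 1 and 986 bp in replicate 2. Whether the summits mark distinct sites was not tested. The 3 mitochondrial summits inside the stretch had median scores of 12.4, 17.01 and 19.6 in replicates 1 to 3. The summits in the rest of the mitochondrial genome had medians of 37.0, 32.2 and 36.7, and the copy on chromosome 1 had 39.9, 55.2 and 20.4. The ranges overlapped in all 3 libraries: the highest score inside the stretch was 16.6, 21.3 and 24.4, and the lowest in the rest of the genome 13.7, 18.8 and 17.4.

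**Figure D4:**
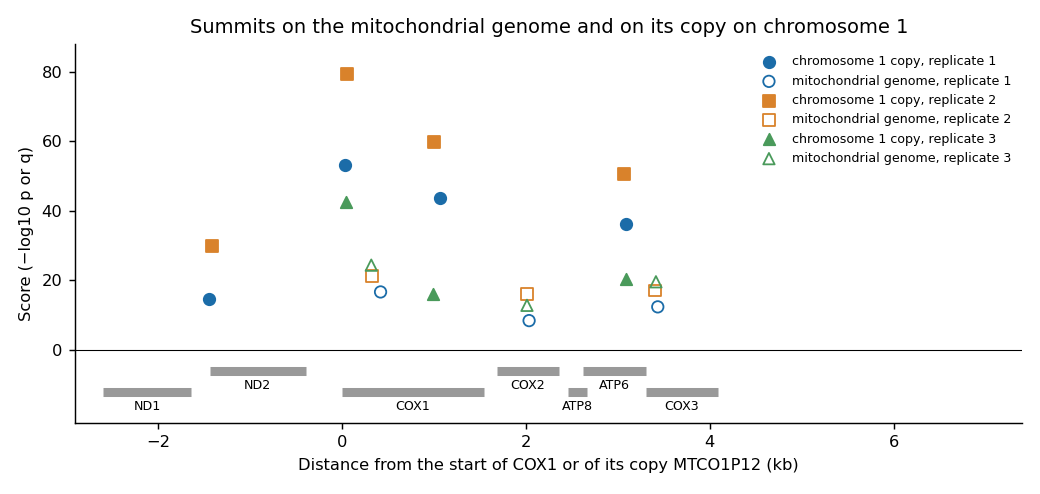
Score (y axis, −log10 of a p or q value) against distance from the start of COX1 or of its copy MTCO1P12 (x axis, kb) for summits on the mitochondrial genome (open) and on chromosome 1 (filled) in each library; grey bars are the mitochondrial genes. Open and filled symbols of the same library are at least 270 bp apart, and COX2 and COX3 have open symbols only.

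Other such copies were counted as well. Of 474 nuclear pseudogenes of mitochondrial genes on the assembled chromosomes, 4 contained a summit (0.844%), 2 of them in all 3 libraries, MTCO1P12 and MTATP6P1. The only one outside the block was MTND5P11 on chromosome 5, a copy of ND5 of the same length, 1812 bp. Replicate 2 had a summit there at 134925380 (7.86) and replicate 1 at 134925475 (7.19), 732 and 827 bp from the lower end. ND5 itself had its summits 636 to 702 bp from its lower end, but the orientation of the copy is not in the table.

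Ribosomal DNA was the other known gene array on the contigs. The 45S genes encode the precursor of the 18S, 5.8S and 28S ribosomal RNAs and are repeated in long arrays with spacers between them. The reference table gives RNA45SN4 under chromosome 22 and RNA45SN5 under no chromosome, with no contig name, and their place on KI270733v1 and GL000220v1 is general knowledge. KI270733v1 had 2, 2 and 7 summits with scores from 3.22 to 9.58. Its region nearest the gene, at 135753, 135832 and 135788 in replicates 1 to 3, lay 108, 187 and 143 bp past the end of RNA45SN4, with scores of 9.58, 5.57 and 5.06. A second region of 3 libraries at 179294 to 179419 scored 3.22, 4.28 and 4.15. GL000220v1 had 1 summit in replicate 1 and 5 in replicate 3, none shared, with scores from 4.46 to 7.48.

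Of the 11 and 6 summits on these contigs, 1 lay inside an annotated 45S gene, a replicate 3 summit in RNA28SN4 at 135186 (4.62). Contig lengths were not used here, so the share of these contigs that the annotated genes make up is not known. The count on the contigs can therefore not be called low or high. On chromosome 21, where the table has 3 more copies, 0 of 22 summits in the block of these copies and 20 kb on either side fell inside a 45S gene, and the genes make up 14.2% of that block. Those 22 comprised 1 from replicate 1, 4 from replicate 2 and 17 from replicate 3, so the counts there rest mostly on replicate 3. The starts of RNA45SN3 and RNA45SN1 are 44.2 kb apart. On the contigs, 5 summits lay further than that from the annotated start, at 55.7 to 57.1 kb. Were the spacing the same there, all 5 would lie inside a further 45S gene, towards its end. The table lists no such copy on these contigs, so these summits are not counted as inside a gene above. Whether a further copy lies there was not tested.

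In 4 of the 5 copies, replicate 3 had a pair of summits at a similar distance from the start of the 45S gene. The first of the pair lay 28.5 kb from the start of RNA45SN5, 28.95 kb from RNA45SN3, 29.2 kb from RNA45SN1 and 29.6 kb from RNA45SN4. The second followed 968, 891, 999 and 1012 bp later. Their scores ranged from 5.17 to 10.01. RNA45SN2 had no summit in that window. Replicate 2 matched 1 of the pairs with 1 summit, 28.8 kb from RNA45SN3 (5.84), and replicate 1 matched none. The window of 28 to 31 kb was chosen after the positions were seen. Other distances recurred as well. Replicate 3 had summits 24.9, 24.4 and 24.1 kb from the starts of RNA45SN2, RNA45SN3 and RNA45SN5. It also had summits 32.4, 32.5 and 32.0 kb from the same starts. The summit 24.4 kb from RNA45SN3 belonged to the 1 region of all 3 libraries in the chromosome 21 block. That region, at 8413423 to 8413609, scored 6.20, 4.65 and 8.11 in replicates 1 to 3.

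**Figure D5:**
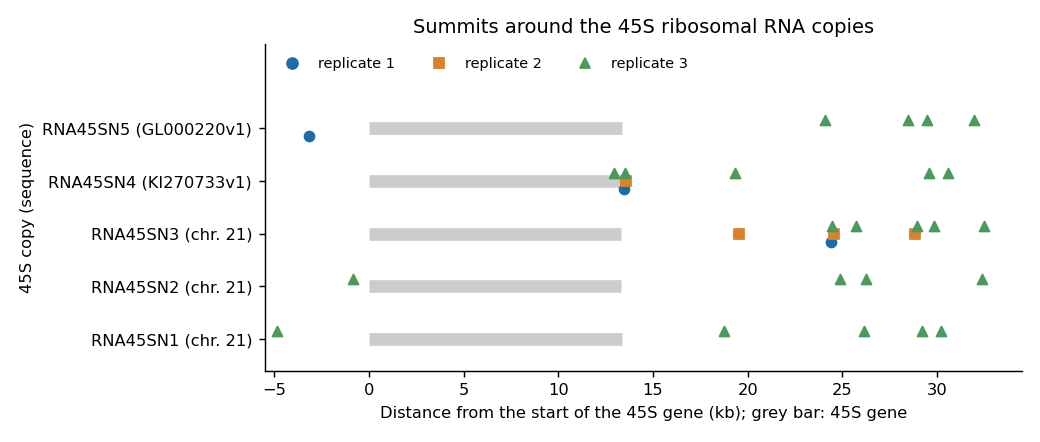
Summits inside the plotted range (1 symbol per summit and library) against distance from the start of the 45S gene (x axis, kb) in the 5 copies (y axis, with their sequence); grey bars are the 45S genes. The bars hold 1 summit, at the end of RNA45SN4, and 4 of the 5 copies have a pair of replicate 3 summits between 28 and 31 kb.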

How the data were processed

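SOX4 ChIP-seq summits of 3 BT549 libraries were used, 1 list per library. The tools in the submitters' processing notes are MACS2, BWA and SAMtools, and versions and settings are not given in the sources used here. The authors deposited a −log10 value with each 1 bp summit, from a p or a q value, and which is not given. It was compared only within a list. The notes name hg19, but the contig names (41 with KI270 identifiers) are those of GRCh38, so positions are 1-based on GRCh38. Genes were placed with RefSeq's GRCh38.p14 table, which lacks strand. No genome sequence was used.

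Members are all summits not on chromosomes 1 to 22, X or Y. A summit was shared when another library had one within 200 bp. Localised contigs carry a chromosome in their name and unplaced contigs none. Differences were computed within each library and tested by an exact sign-flip permutation over the 3 libraries. Named in full were contigs with a region of 3 libraries, the 12 best such regions by worst rank, and every mitochondrial summit; other summits and regions, KI270709v1, GL000220v1, the chromosome 1 block, the ribosomal spacer and MIR12136 were singled out after their values were seen. The members and lists were chosen with earlier results of these data known. Sharing and joining were run on simulated lists, and 60 of 60 planted regions were found. The planted regions lay far apart and the other simulated summits were placed too far apart to join. This checked the code only and cannot show false joins where summits lie close together. Alternatives are in the closing section. Computations used Python 3.11.15, pandas 2.3.3 and SciPy 1.17.1.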

Additional observations from a re-analysis of the deposited data

How the results depend on the processing

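The difference in sharing kept its direction in all 10 alternatives run, among them windows of 100 and 500 bp (38.4 and 39.1 percentage points), lists of equal length (42.8) and leaving out GL000225v1 (36.7, added after the data were seen). Leaving out 1 library gave 38.4 to 41.4 points. The smallest difference, 18.7 points, came from weighting the assembled summits to the same score classes, also added after the data were seen. It ran from 8.54 to 28.6 in single libraries. The difference in median score kept its direction in all 8, with 3.69 to 5.12 when 1 library was left out. The 63 regions of all libraries became 46 with a 100 bp window and 70 with 500 bp, 51 with scores at or above the median, and 71 to 79 with 1 library left out and the other 2 required. The mean percent of a list outside the assembled chromosomes, 5.91, was 9.34 among summits at or above the median score (the cause was not tested), and 5.07 to 7.45 with 1 library left out. No paired analysis was possible because there is no second group of libraries to pair with. The differences above are between classes of summits within each library. Depth, and so the power to list weak summits, is unknown.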

Other observations

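Regions on contigs lay close together. Of 177 contig regions, 124 had another region within 10 kb (70.1%), against 1522 of 6011 on assembled chromosomes (25.3%), and 25 were alone on their contig. Contig lengths were not used here, and short contigs limit how far apart regions can lie.

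Some scores recurred on different contigs, in no larger share than in the whole list of the same library. In replicate 2, 6 of the 125 summits outside the assembled chromosomes had the same score, 5.57, on 6 different contigs. This is the median score of that list, and 93 of its 1713 summits had it. In replicate 3 a score of 4.77 was held by 4 of 126 summits, on 4 contigs, and by 216 of the 4430 summits of the whole list.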
